A study of Sus scrofa with 30 samples.

Results

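The muscle microRNAs miR-1, miR-206 and miR-499 (mir-1, mir-206 and mir-499 in precursor names) were followed across small RNA libraries of the porcine endometrium, the inner lining of the uterus. Members were taken from the study's list of 873 annotated small RNA sequences as every sequence named for miR-1, miR-206, miR-133a, miR-133b or miR-499, and their reads were counted by exact match in each library. This gave 8 of the 873 sequences, of which 5 were forms of miR-1, 1 was miR-206 and 2 were forms of miR-499, while no sequence of the list carried the name miR-133a or miR-133b. The series holds 30 libraries, 1 per gilt, of which 16 came from pregnant (P) and 14 from cyclic (C) animals on days (D) 12, 16 and 20. All gilts were Hampshire x Duroc crossbreds aged 7 to 8 months from a single commercial herd. The labels give insemination at 12 and 24 h after the third estrus in the same words for pregnant and cyclic animals, so how the cyclic gilts were treated at that estrus is not given there. The 6 groups were PD12 (5 animals), PD16 (5), PD20 (6), CD12 (4), CD16 (5) and CD20 (5). Conceptuses were flushed from the horns up to D16, whereas PD20 tissue came from implantation sites whose embryos and trophoblast had been dissected off, so PD20 differed from the other groups in collection as well as in status and day. The libraries held 2029729 to 6402731 reads, and 75.3% to 87.2% of these belonged to the 873 sequences.

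MicroRNAs are short RNAs that pair with messenger RNAs through their seed, bases 2 to 8 from the 5′ end, and lower the output of those messages. miR-1, miR-206 and miR-499 belong to the myomiRs, microRNAs best known from skeletal and heart muscle, where they take part in muscle differentiation and fibre type. miR-206 is known mainly from skeletal muscle, and miR-499 lies in an intron of a myosin heavy chain gene. The uterus also contains smooth muscle, in the myometrium beneath the endometrium and in vessel walls, whose best known microRNAs are miR-143 and miR-145.

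The sequences are shown to make visible which members share a seed and how the forms of miR-1 differ at their 3′ end. They are the DNA letters of the deposited reads, with T for U, 5′ to 3′, and capitals mark the seed. ADD and DEL name bases beyond or short of the canonical form.
miR-1 (canonical): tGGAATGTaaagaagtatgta
miR-1 DEL A: tGGAATGTaaagaagtatgt
miR-1 ADD T: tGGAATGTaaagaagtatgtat
miR-1 ADD TT: tGGAATGTaaagaagtatgtatt
miR-1 ADD TC: tGGAATGTaaagaagtatgtatc
miR-206 (canonical): tGGAATGTaaggaagtgtgtga
miR-499 (canonical): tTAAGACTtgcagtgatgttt
miR-499 ADD A: tTAAGACTtgcagtgatgttta

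The 5 forms of miR-1 and miR-206 carried the seed GGAATGT, which no other sequence among the 873 had, and the 2 forms of miR-499 were the sole carriers of TAAGACT. Over their shared 21 bases, counted from the 5′ end, miR-1 and miR-206 differed by the substitutions A11G, A17G and A21G, all outside the seed. The list named miR-1 ADD TC only by human and other primate precursors, and the other 7 members by pig microRNAs. In the RefSeq annotation of the pig assembly Sscrofa11.1, MIR1 has MIR133A-1 as its nearest microRNA gene, MIR206 has MIR133B, and MIR499 lies within MYH7B, a myosin heavy chain gene.

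One library stood apart in miR-1. The PD20 replicate 1 library held 115095 of the 354164 reads of the 5 miR-1 forms, or 32.5%. Its canonical miR-1 reached 1522 normalized reads (reads per 1000000 reads of the annotated sequences after TMM scaling). This was 18.3 times the median of the 30 libraries and 5.99 times the next highest library, CD16 replicate 5 at 254 normalized reads. Part of this distance comes from the TMM factors, 0.644 in PD20 replicate 1, the lowest of the 30, and 1.08 in CD16 replicate 5. Unscaled, canonical miR-1 had 4363 of 4448675 annotated reads in PD20 replicate 1 and 637 of 2318086 in CD16 replicate 5. In PD20 replicate 1, miR-1 ADD T ranked 6 of 873 in abundance, against rank 46 by its median over the 30 libraries. Neither miR-206, at 10.1 normalized reads in that library, nor miR-499, at 16.7 for the canonical form, was highest there. For this reason the main results on PD20 are given with and without that library.

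The same library was the richest in miR-143 and miR-145 summed, the only microRNAs of the smooth muscle list used here. Sequences of miR-143 and miR-145 made up 41.0% of its annotated reads, whereas in the other 29 libraries they reached at most 16.5%, in CD20 replicate 1. The tissue label was checked against microRNAs of the epithelium. The sum of the 67 sequences of that list in PD20 replicate 1, 16844 normalized reads, lay close to the median of the 30 libraries, 17679. That value is raised by the TMM factor of the library, 0.644, whereas the 41.0% is unscaled. Before scaling, the epithelial list held 48278 of its 4448675 annotated reads, a share below that of every other library but CD16 replicate 3. The erythrocyte list (16 sequences of miR-451, miR-144 and miR-486, led by miR-451) was higher in that library, with 2969 normalized reads against a median of 1198, the fourth highest of the 30. Its mean was highest in PD20 of the 6 groups (2190, against 972 to 1446 in the others). The 2969 is raised by the same TMM factor, and miR-486 is also counted among the myomiRs. These lists do not measure cell content, and whether smooth muscle or blood in the sample had a part in its miR-1 level was not tested. In tissue samples such as these, fewer cells of a type and less RNA per cell cannot be told apart.

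Canonical miR-1 was a sequence of middling abundance. In PD12 it stood at 59.7, 129, 90.5, 49.8 and 82.7 normalized reads in replicates 1 to 5. In PD16 the values were 66.7, 43.6, 56.8, 34.999 and 44.7 normalized reads. PD20 ranged from 61.7 over a median of 99.8 to the 1522 of replicate 1. Thus PD16 held the lowest library of all, and PD16 and PD20 met between 61.7 and 66.7 normalized reads.

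In CD12, canonical miR-1 stood at 98.6, 142, 117 and 87.8 normalized reads. The values in CD16 were 93.6, 101, 63.7, 53.3 and 254 normalized reads, and those in CD20 were 83.3, 63.8, 41.4, 106 and 86.2. By medians the order was CD12 (108), PD20 (99.8), CD16 (93.6), CD20 (83.3), PD12 (82.7) and PD16 (44.7). Each pair of neighbours in this order overlapped in its range of libraries.

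**Figure D1:**
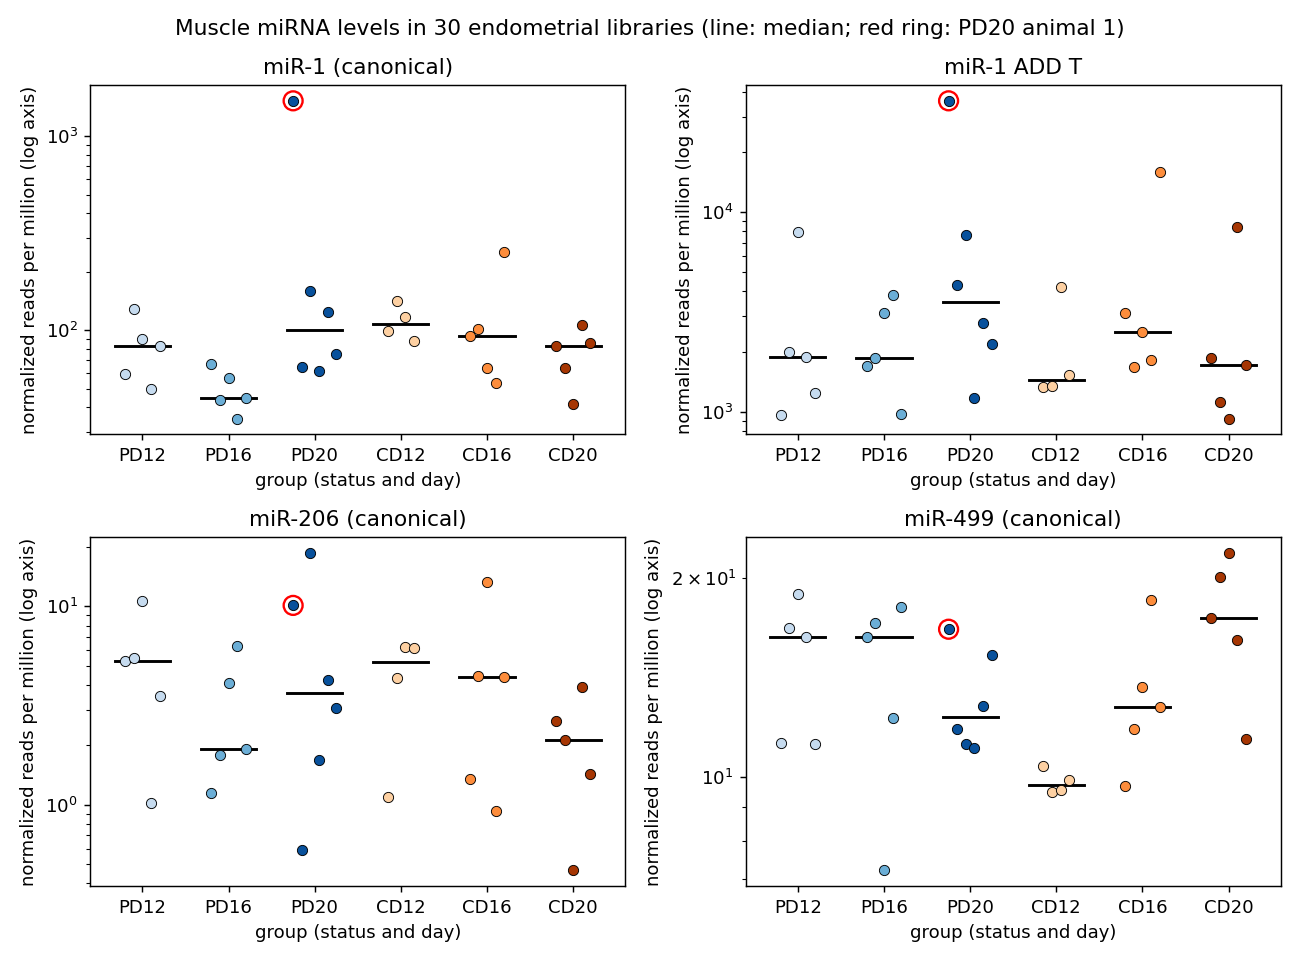
Normalized reads (log axis) of canonical miR-1, miR-1 ADD T, miR-206 and canonical miR-499 in each of the 30 libraries, by group, with lines at the group medians and a red ring on PD20 replicate 1. That library, at 1522 for canonical miR-1, lies above all others in both miR-1 panels and within the spread of the others in the miR-206 and miR-499 panels.

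The comparison of days within pregnancy asked how the endometrium changed from D12 to implantation. Canonical miR-1 differed from PD12 by a log2 fold change of -0.67 ± 0.74 (SE) in PD16 and of 2.12 ± 0.75 in PD20, with an adjusted p = 0.0710 for both days together (edgeR quasi-likelihood test, Benjamini-Hochberg over the 873 sequences). The other miR-1 forms had log2 fold changes of 1.54 to 2.38 in PD20, led by miR-1 ADD TC, and all 5 forms lay below 0 in PD16, where the -0.28 of miR-1 ADD T turned to 0.64 without PD12 replicate 3. None of the 8 members passed the threshold, an adjusted p under 0.05 with an absolute log2 fold change over 1, which 2 of the 873 sequences passed in PD16 (0.229%) and 7 in PD20 (0.802%). At an unadjusted p under 0.05 in the joint test of both days there were 5 members, all of them miR-1, beside 18.7% of all sequences. Tested day by day there were 0 in PD16, beside 10.2%, and 6 in PD20, the 5 miR-1 forms and miR-499 ADD A, beside 20.6%. DESeq2 called 0 members, with 4 of the 8 left without an adjusted p, where it called 2.86% of all sequences in PD16 and 5.27% in PD20. The edgeR likelihood ratio test called 4 members in PD20, beside 5.27% of all sequences, and 1 in PD16, beside 2.75%.

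Without PD20 replicate 1, most of the PD20 difference was gone. The log2 fold change of canonical miR-1 against PD12 became 0.28, that of miR-1 ADD T 0.42 instead of 1.73, and those of miR-1 DEL A and miR-1 ADD TC turned to -0.03 and -0.12. The median log2 fold change of the 8 members in PD20 moved from 1.64 to 0.09, while the median over the 873 sequences was -0.01 with all libraries. Leaving out PD20 replicate 4, which had the lowest canonical miR-1 of its group, instead brought canonical miR-1 past the threshold, with a log2 fold change of 2.24 and an adjusted p = 0.0463 in the edgeR test, which then called 1.15% of all sequences.

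PD20 and PD16 were then compared directly. Canonical miR-1 had a log2 fold change of 2.79 ± 0.77 (SE; adjusted p = 0.114), miR-1 DEL A one of 2.60 ± 0.72 and miR-1 ADD T one of 2.02 ± 0.79 in the same edgeR fit. Of the 8 members 0 were called by this test or by DESeq2, which left 4 of them without an adjusted p, where edgeR called 0.573% and DESeq2 1.72% of all sequences, and 5 had an unadjusted p under 0.05, where 14.2% of all sequences did. Without PD20 replicate 1 the log2 fold change of canonical miR-1 was 0.94 (unadjusted p = 0.0157, adjusted p = 0.268 in edgeR) that of miR-1 DEL A was 1.06 and that of miR-1 ADD T was 0.65, and 3 members, all of them miR-1 forms, kept an unadjusted p under 0.05, beside 13.9% of all sequences.

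The days of the estrous cycle were compared in the cyclic animals, where canonical miR-1 passed no test. Its log2 fold change against CD12 was 0.12 ± 0.46 (SE) in CD16 and -0.56 ± 0.45 in CD20, and -0.68 ± 0.43 for CD20 against CD16. The test called 0 members in CD16 or CD20 against CD12, as did DESeq2. In the joint test of both days 0 members had an unadjusted p under 0.05, against 23.9% of all sequences. Tested day by day there were 0 in CD16, beside 17.1%, and 1 in CD20, canonical miR-499, beside 14.3%. The shares of all sequences called were 0.115% for CD16 and 0.458% for CD20 in edgeR and 5.84% and 6.41% in DESeq2, and 0.458% and 8.25% for CD20 against CD16, where likewise 0 members were called and 0 had an unadjusted p under 0.05, beside 21.2% of all sequences. The largest difference of a miR-1 form from CD12 in CD16 was the 1.34 ± 0.74 of miR-1 ADD T, which rested on CD16 replicate 5 and was 0.12 without it. Without that library the CD16 difference of canonical miR-1 from CD12 was -0.50 and that of CD20 from CD16 was -0.08.

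The status comparisons asked whether pregnant and cyclic animals of one day differed. On D12 the log2 fold change of canonical miR-1 in pregnant against cyclic animals was -0.45 ± 0.35 (SE). On D16 it was -1.23 ± 0.43, with an unadjusted p = 0.0106 and an adjusted p = 0.336 in edgeR. On D20 it was 2.24 ± 0.82, with an adjusted p = 0.0967.

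The edgeR test called 0 members on each of the 3 days, as did DESeq2, which on D20 left 4 of the 8 without an adjusted p. Of all 873 sequences edgeR called 0 on D12 (0%), 0 on D16 (0%) and 13 on D20 (1.49%), and DESeq2 called 0 on D12, 7 on D16 (0.802%) and 131 on D20. At an unadjusted p under 0.05 there was 1 member on D12, miR-499 ADD A, beside 6.07% of all sequences, 4 on D16, all of them miR-1 forms, beside 10.9%, and 5 on D20, 4 miR-1 forms and miR-206, beside 28.5%. The D20 difference of canonical miR-1 was 0.41 without PD20 replicate 1, where 0 members had an unadjusted p under 0.05 beside 24.6% of all sequences. The D16 difference was -0.71 without CD16 replicate 5, that of miR-1 ADD T went from -1.19 to -0.09, and the 4 members with an unadjusted p under 0.05 became 1, miR-1 DEL A, beside 11.6% of all sequences. Leaving out PD20 replicate 4 gave 1 member called on D20, canonical miR-1, with a log2 fold change of 2.38 and an adjusted p = 0.0474 in edgeR, beside 13.3% of all sequences called in that fit.

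**Figure D2:**
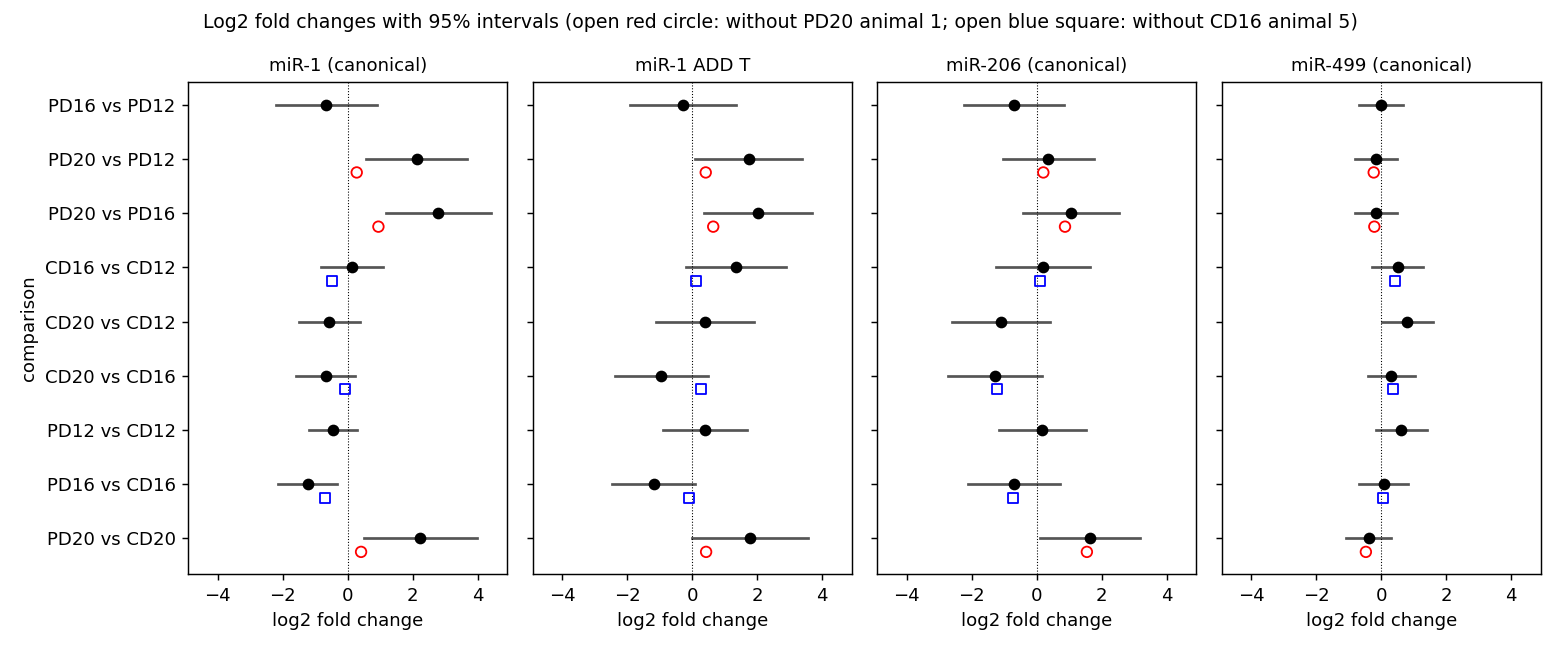
Log2 fold changes (points) with 95% intervals (bars) of canonical miR-1, miR-1 ADD T, miR-206 and canonical miR-499 in the 9 comparisons of groups from edgeR, with open red circles for the same value without PD20 replicate 1 and open blue squares without CD16 replicate 5. The PD20 points of canonical miR-1 at 2.12, 2.79 and 2.24 move to 0.28, 0.94 and 0.41 without that library.

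Whether the pregnancy effect itself differed between days was tested as an interaction in one edgeR fit of all 30 libraries. The difference between pregnant and cyclic animals in canonical miR-1 was greater on D20 than on D16 by 3.33 ± 0.89 (SE) on the log2 scale (adjusted p = 0.0440), and that of miR-1 ADD TT by 3.23 ± 0.85 (adjusted p = 0.0440). These were the 2 members called of 8, beside 21 of the 873 sequences (2.41%), and 6 members had an unadjusted p under 0.05, beside 19.1% of all sequences. miR-1 ADD T, the form with the most reads, had 2.80 ± 1.10 (adjusted p = 0.161 in edgeR) and was not called. The 5 forms of miR-1 summed had 3.16 ± 1.09 (adjusted p = 0.0841 in edgeR over 193 names) and were not called, where 5 of the 193 names were. DESeq2 called 3 members, with 1 left without an adjusted p, beside 5.96% of all sequences. Between D16 and D12 the difference in canonical miR-1 was -0.76 ± 0.91, and between D20 and D12 it was 2.57 ± 0.89 (adjusted p = 0.185 in edgeR), with 0 members called in both, by DESeq2 too, beside 0% and 0.115% of all sequences in edgeR and 0% and 2.75% in DESeq2. At an unadjusted p under 0.05 there were 0 members between D16 and D12, beside 8.13% of all sequences, and 5 between D20 and D12, beside 16.4%. Of these 5, 3 were miR-1 forms above 0 and 2 were the forms of miR-499 below 0, at -0.996 for the canonical form and -1.78 for miR-499 ADD A.

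The call for D20 against D16 lay close to the threshold. Without PD20 replicate 1 the interaction in canonical miR-1 was 1.64 with an adjusted p = 0.0992, and without CD16 replicate 5 it was 2.90 with an adjusted p = 0.108 in edgeR. With PD20 replicate 1 left out, 4 members, all of them miR-1 forms, had an unadjusted p under 0.05, beside 17.6% of all sequences. For D20 against D12 without that library the interaction in canonical miR-1 was 0.82, and the 2 members with an unadjusted p under 0.05 (13.7% of all sequences) were the forms of miR-499, at -1.06 and -1.68. Leaving out any one of 16 libraries took the number of members called to 0, namely PD12 replicates 1, 2 and 4, PD16 replicates 1 to 5, PD20 replicates 1 and 5, CD12 replicate 4, CD16 replicates 1, 2 and 5, and CD20 replicates 1 and 2. It was 4 without PD20 replicate 2, 4 or 6 or CD16 replicate 3, where 2.06%, 3.89%, 1.95% and 1.95% of all sequences were called. In every one of these fits the interaction in canonical miR-1 was above 0. Library sizes from all deposited reads also gave 0 members called, beside 2.29% of all sequences, as did the replicate number as a block, beside 0%.

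miR-206 had few reads. It had 335 reads in the 30 libraries together, from 1 to 45 per library with a median of 8.5. Its highest library was PD20 replicate 3 at 18.7 normalized reads, followed by CD16 replicate 3 at 13.2, PD12 replicate 3 at 10.6 and PD20 replicate 1 at 10.1. These 4 libraries came from 3 groups, and all 6 groups overlapped.

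The medians of miR-206 ran from 1.90 normalized reads in PD16 and 2.12 in CD20 to 5.27 in CD12 and 5.32 in PD12. Its log2 fold change in PD20 against CD20 was 1.64 ± 0.72 (SE; adjusted p = 0.149 in edgeR) and was 1.54 without PD20 replicate 1 and 0.98 without PD20 replicate 3, its highest library. The other log2 fold changes of miR-206 between groups lay between -1.28 for CD20 against CD16 and 1.05 for PD20 against PD16. Without PD20 replicate 3 the latter was 0.39, and the 0.36 of PD20 against PD12 turned to -0.30. These values were 0.87 and 0.20 without PD20 replicate 1.

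miR-499 was low in every library. The 2 forms together had 1510 reads, and canonical miR-499 spanned 7.23 to 21.9 normalized reads over the 30 libraries. In CD12 it stood at 10.4, 9.48, 9.57 and 9.89 normalized reads, in CD16 at 9.69, 11.8, 13.7, 18.5 and 12.8, and in CD20 at 17.4, 20.1, 21.9, 16.1 and 11.4. CD12 lay wholly below CD20, in a comparison in which 39 of the 873 sequences (4.47%) kept the groups apart in either direction, and wholly below PD12, where 19 (2.18%) did. Canonical miR-499 was the one member apart in these 2 comparisons, and none was in the other 7 of the 9 comparisons made, where the share of all sequences apart was 1.83% for PD16 against PD12, 3.32% for PD20 against PD12, 1.72% for PD20 against PD16, 5.5% for CD16 against CD12, 4.93% for CD20 against CD16, 1.72% for PD16 against CD16 and 4.81% for PD20 against CD20.

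In the pregnant animals the values of canonical miR-499 in PD12 were 11.3, 16.8, 18.9, 16.3 and 11.2 normalized reads. PD16 had 16.3, 17.1, 7.23, 12.3 and 18.1, and PD20 ran from 11.1 over a median of 12.3 to 16.7. The log2 fold changes were 0.81 ± 0.38 (SE) for CD20 against CD12 and 0.61 ± 0.37 for PD12 against CD12, with adjusted p = 0.318 for the days of the cycle and 0.704 for status in edgeR, so neither passed. Against PD12, both forms lay below 0 in PD20, where the forms of miR-1 lay above: canonical miR-499 had -0.16 ± 0.31 and miR-499 ADD A -1.12 ± 0.48, and neither was called. The values were -0.23 and -1.01 without PD20 replicate 1.

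The forms of miR-1 were unequal in number. In every library miR-1 ADD T was the most abundant, with a mean share of 89.2% ± 4.95 (SD, n = 30) of the reads of the 5 forms. Canonical miR-1 held 3.51% ± 1.77, miR-1 ADD TT 3.96% ± 1.69, miR-1 DEL A 3.14% ± 1.78 and miR-1 ADD TC 0.196% ± 0.148. The longer form therefore carried most of the miR-1 signal in this tissue, and its group order by medians began with PD20 at 3547 normalized reads and CD16 at 2497 and ended with CD12 at 1441.

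The number of miR-1 ADD T reads per canonical read differed widely between animals, and no pair of groups passed the test. It ran from 9.49 in CD12 replicate 2 to 110 in PD16 replicate 4. The mean log2 ratio was 4.71 ± 1.12 (SD, n = 5) in PD12, 5.41 ± 0.94 in PD16, 4.97 ± 0.71 (n = 6) in PD20, 4.07 ± 0.82 (n = 4) in CD12, 5.09 ± 0.69 in CD16 and 4.74 ± 0.89 in CD20. In the exact two-sided permutation test of the 9 pairs of groups the smallest p was 0.111, for CD16 against CD12 with a difference of 1.02, and the adjusted p was 0.658 for every pair. PD20 replicate 1, with 23.7 miR-1 ADD T reads per canonical read, lay within the spread of the other PD20 animals, and it was the highest of the 30 libraries in each of the 5 forms.

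Reads that began like a member but were not among the 873 sequences were counted as well. In the 30 libraries 426761 reads shared the first 17 bases of miR-1, and 17.01% of them were outside the list. For miR-206 and miR-499 the same shares were 17.1% of 404 reads and 17.9% of 1839 reads. Most of the unlisted miR-1 reads, 58691, belonged to one form with a single C after the canonical end, which is shown because it was the second most abundant miR-1 form in the data.
miR-1 with added C: tggaatgtaaagaagtatgtac

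This form had 4459 reads per 1000000 deposited reads in PD20 replicate 1, against at most 2393 in a cyclic library, CD16 replicate 5. Its proportion to miR-1 ADD T had a median of 16.7 reads per 100 ADD T reads. PD20 replicate 3, at 2.02, and CD16 replicate 3, at 2.32, were the exceptions, and in the remaining 28 libraries the ratio was 10.3 to 26.3. Those 2 libraries also had the lowest share of miR-1 ADD TC, at 0.993 and 0 reads per 100 reads of miR-1 ADD TT.

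**Figure D3:**
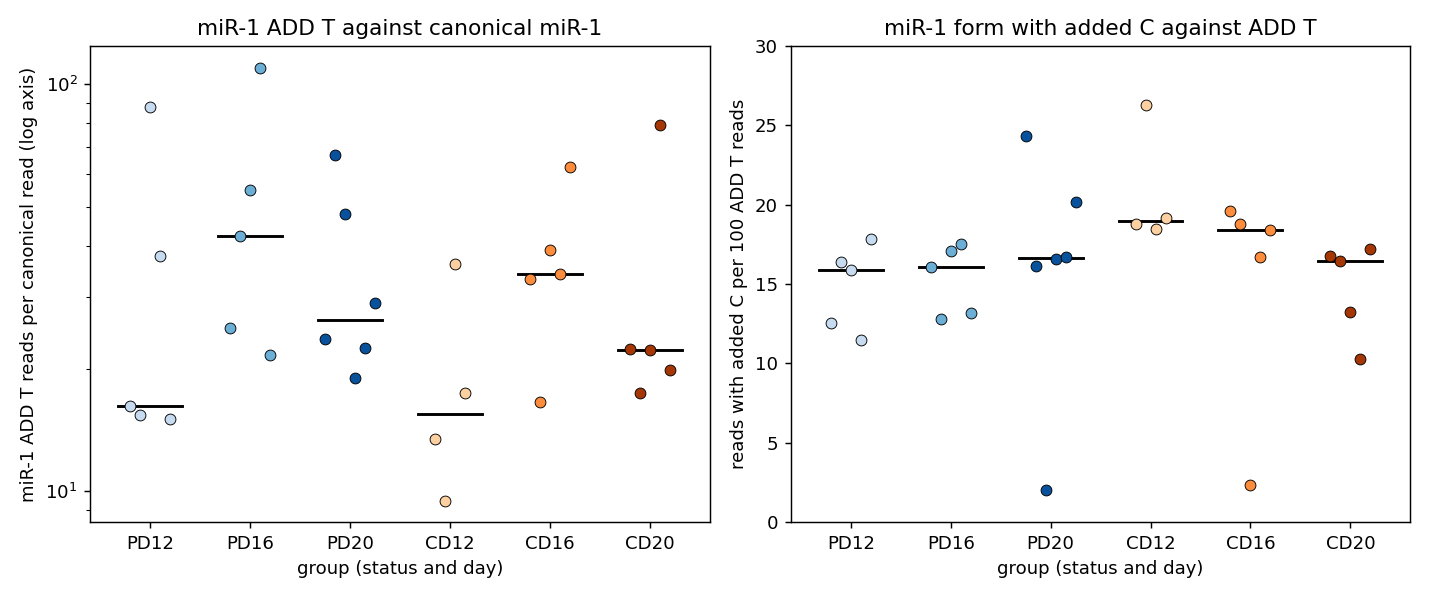
Reads of miR-1 ADD T per read of canonical miR-1 (left, log axis) and reads of the miR-1 form with an added C per 100 reads of miR-1 ADD T (right), for each of the 30 libraries by group, with lines at the group medians. The left ratio spans 9.49 to 110 within overlapping groups, and on the right PD20 replicate 3 and CD16 replicate 3 lie at 2.02 and 2.32, below the 10.3 of the next lowest library.

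Canonical miR-1 was set beside marker microRNAs of other cells over the 30 libraries, on log2 of normalized reads plus 1. It followed the summed smooth muscle list (31 sequences of miR-143 and miR-145), with Pearson's r = 0.89 and Spearman's rho = 0.76 (permutation p = 1e-05, the smallest that the resamples can give, and 3e-05, adjusted over 6 lists 6e-05 and 0.00018). Within groups, taken as deviations from the group means, r was 0.87 and rho 0.64 (adjusted permutation p = 6e-05 and 0.00132). Without the 2 libraries farthest from the median, PD20 replicate 1 and CD16 replicate 5, r was 0.74 over the remaining 28 and 0.70 for their deviations (adjusted permutation p = 0.00012 and 0.0006). For the sum of the 5 miR-1 forms in place of the canonical form, r was 0.501 (adjusted permutation p = 0.0740), which did not pass. The list was almost wholly miR-143, which gave a median of 99.0% of its normalized reads. Summed apart, the 22 sequences of miR-143 had r = 0.89 with canonical miR-1 (0.74 without PD20 replicate 1) and the 9 of miR-145 had r = 0.52 (0.22 without it), as a description with no test. All these values share their library totals.

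The smooth muscle list was set beside miR-1 in the group comparisons. In PD20 against PD16 all 31 of its sequences had log2 fold changes above 0, with a median of 1.20, while the median over the 873 sequences was -0.06. Of the 31, 1 was called, beside 0.573% of all sequences. In PD16 against CD16 the median of the list was -0.78 with 4 of 31 above 0, and in PD20 against CD20 it was 0.89 with 28 of 31 above 0. In both, 0 of the list were called, beside 0% and 1.49% of all sequences. Without PD20 replicate 1 the medians were 0.42 against PD16, with 25 of 31 above 0, and 0.11 against CD20, with 16 of 31 above 0. Here 0 of the list were called, beside 0.458% and 1.03% of all sequences. In CD16 against CD12 the list had a median of -0.08 with 15 of 31 above 0, where all 5 forms of miR-1 lay above 0. In the fit without CD16 replicate 5, 3 of the 5 forms lay below 0 (miR-1 DEL A at -0.32, the canonical form at -0.50 and miR-1 ADD TC at -0.70), and the list had a median of -0.17 with 13 of 31 above 0. In the interaction of D20 against D16 without CD16 replicate 5, the list had a median of 1.49 with 30 of 31 above 0. Without PD20 replicate 1 the median in this interaction was 0.66, with 26 of 31 above 0. The medians over all sequences in these 2 fits were -0.05 and -0.02. The most abundant sequence of the list, miR-143-3p, gave 343752 of its 636004 normalized reads in PD20 replicate 1. Relative to the list, canonical miR-1 was not constant. Per 100000 reads of the list it had 239 reads in PD20 replicate 1 and 179 in CD16 replicate 5, the 2 highest of the 30 libraries. The median was 77.7 and the lowest value 46.2. For the sum of the 5 forms, CD16 replicate 5 was highest at 11812 reads per 100000, and PD20 replicate 1 ranked 4 at 6314, against a median of 2324. The part of smooth muscle in the miR-1 differences was not tested.

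None of the other lists had a correlation with canonical miR-1 over the 30 libraries that passed the test. Pearson's r was 0.30 for 16 erythrocyte sequences, -0.27 for 15 leukocyte sequences, 0.04 for 67 epithelial sequences, -0.10 for 17 sequences of the endothelial miR-126 and 0.15 for the 1 sequence of the embryonic miR-302 (adjusted permutation p = 0.288, 0.288, 0.851, 0.704 and 0.532). Within groups the leukocyte list had r = -0.50 (adjusted permutation p = 0.00825), which became -0.29 without PD20 replicate 1 and CD16 replicate 5 (adjusted permutation p = 0.398). In the leukocyte list no sequence of miR-223 was present, and miR-146a-5p was the most abundant.

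The embryonic miR-302 sequence, a marker of conceptus cells, was at 0 in 22 of the 30 libraries and present in all 6 of PD20 and, with 2 reads and 1 read, in the cyclic libraries CD20 replicates 1 and 5. It had 2.44 normalized reads in PD20 replicate 1, compared with 39.3 in replicate 4 and 41.2 in replicate 6, so the library highest in miR-1 was among the lowest of its group in the conceptus marker. The other members of the conceptus list (miR-367 and miR-371 to miR-373) had no sequence among the 873.

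**Figure D4:**
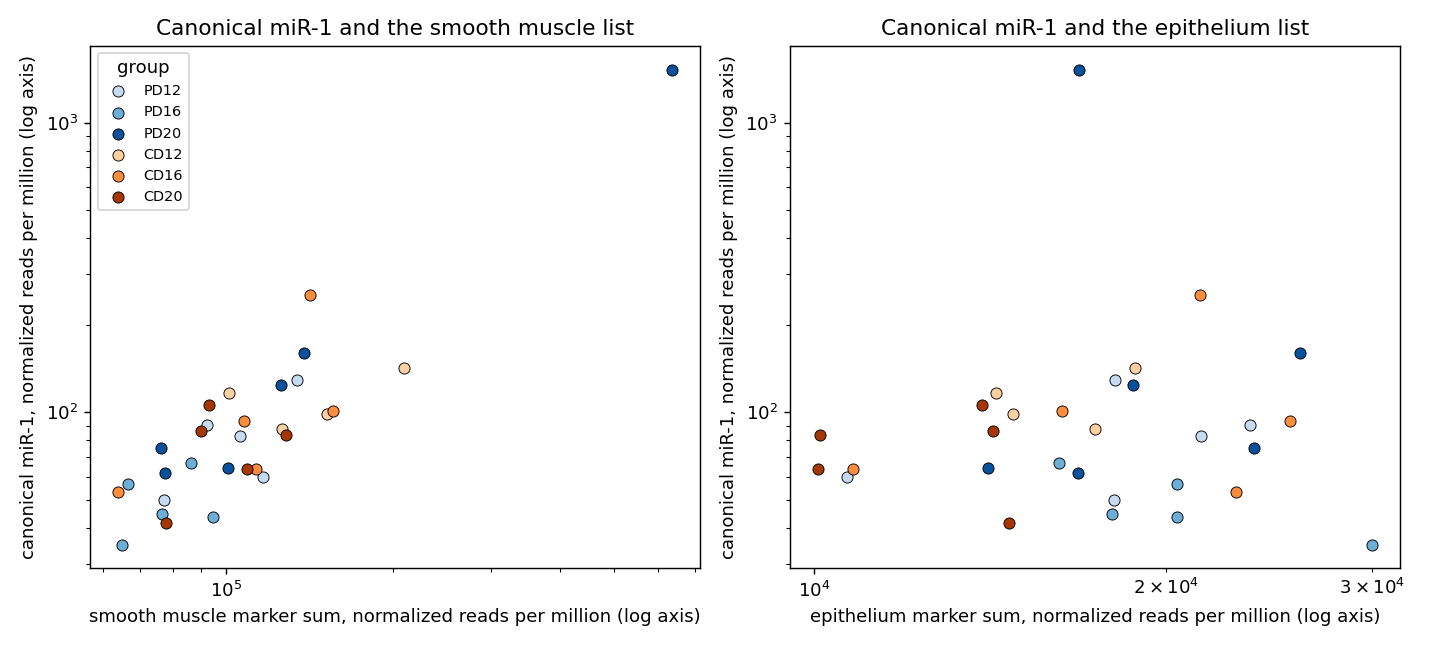
Canonical miR-1 against the summed smooth muscle list (left) and the summed epithelial list (right) in the 30 libraries, all in normalized reads on log axes, coloured by group. The points rise together on the left (r = 0.89) and not on the right (r = 0.04), and PD20 replicate 1 is the single point at 1522 for miR-1.

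The sequences most like canonical miR-1 in pattern were sought among the 543 sequences outside the members with a mean of at least 10 normalized reads. All of the 10 highest by Pearson's r over the 30 libraries were forms of miR-143, from canonical miR-143-3p at r = 0.87 down to 0.59, whereas the median over the 543 was -0.05. Without PD20 replicate 1, 9 of these 10 stayed among the 10 highest, and miR-143-3p remained first at r = 0.71. It does not share the seed of miR-1, as its sequence shows.
miR-143-3p: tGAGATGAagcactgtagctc

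Among the members themselves, miR-1 DEL A followed canonical miR-1 most closely (r = 0.92 over the 30 libraries, and 0.82 without PD20 replicate 1). miR-1 ADD TT had 0.91 and 0.78, and miR-1 ADD T had 0.72 and 0.52. For miR-206 the values were 0.46 and 0.42. Canonical miR-499 had -0.08 and -0.32. These values describe the libraries, which share their totals, and were not tested.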

How the data were processed

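Small RNA (NEXTflex kit, 3 multiplexed pools whose membership is not given in the sources used here) was sequenced from total RNA of 30 endometria. The authors removed adapters, low-quality reads and reads under 17 nt, collapsed identical reads and deposited the read count of each distinct sequence; these deposited counts are not normalized. They annotated sequences by full identity to microRNA databases. Reads of the 873 annotated sequences were joined by exact match. Columns of the authors' own comparisons (fold changes and p-values) were not used. Members and lists were chosen with earlier results of these data known.

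All 873 sequences were tested with the edgeR 4.0.16 quasi-likelihood F-test in R 4.3.3 (TMM, prior count 0.125, Benjamini-Hochberg over all 873), days within a status with a joint test of D16 and D20 against D12, status on each day alone, and the interaction over all 30 libraries. The edgeR step was tested on simulated data with known changes. The sequences named were all members in all comparisons, the marker lists by their counts, and the 10 sequences most like canonical miR-1 (Pearson's r, pseudocount 1). Ratios used exact permutation tests, marker correlations 100000 permutations (scipy 1.17.1). Alternatives were the likelihood ratio test, DESeq2 1.42.0, other library sizes, filters and fits, and each library left out. Standard errors are the log2 fold change over the root of F. Replicates are separate animals. Counts without molecular identifiers are not independent molecules.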

Additional observations from a re-analysis of the deposited data

Results flagged for a closer look

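Within groups, 48 combinations of a member and a group were tested for a single library far from the rest by Dixon's test on log2 values, and 6 passed. The forms of miR-1 share their libraries, so the 48 tests are not independent. The usual rate of about 1 in 20 therefore cannot be set against the 6. PD20 replicate 1 lay far above the other PD20 libraries in miR-1 DEL A (989 normalized reads), canonical miR-1 (1522), miR-1 ADD TC (109) and miR-1 ADD TT (1526). In miR-1 ADD T the libraries far from their groups were CD16 replicate 5 at 15860 normalized reads and CD12 replicate 3 at 4210. On the linear scale 16 of the 48 passed.

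The pregnancy effect differed between D20 and D16 in the interaction test for canonical miR-1 (3.33 on the log2 scale) and miR-1 ADD TT (3.23). The adjusted p was 0.0440 for both, and without PD20 replicate 1 the values were 1.64 (adjusted p = 0.0992, edgeR) and 1.69 (adjusted p = 0.0906). Neither miR-1 ADD T, the form with the most reads (2.80, adjusted p = 0.161 in edgeR), nor the sum of the miR-1 forms (3.16, adjusted p = 0.0841) was called. No member was called in this interaction when any one of 16 libraries was left out, with the replicate block or with library sizes from all deposited reads. Among sequences outside the annotated list, the miR-1 form with an added C reached 4459 reads per 1000000 deposited reads in PD20 replicate 1, above the highest cyclic library at 2393.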

How the results depend on the processing

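The likelihood ratio test called 1 member in PD16 against PD12, 4 in PD20 against PD12, 4 in PD20 against PD16, 3 in PD20 against CD20 and 4 in the interaction of D20 against D16, where the quasi-likelihood test called 0, 0, 0, 0 and 2. Of all sequences it called 2.75%, 5.27%, 2.41%, 14.2% and 5.38%. One fit of all 30 libraries called 1, 3, 3 and 2 members in the first 4 of these, beside 0.573%, 2.06%, 1.26% and 11.2% of all sequences. For the interaction, RLE normalization gave 4 members, beside 2.75% of all sequences, and 0 were called with library sizes from all deposited reads or with all deposited sequences of at least 10 reads. Leaving out 1 library at a time gave 0 to 1 members in PD20 against PD12, 0 to 1 in PD20 against CD20 and 0 to 4 in the interaction. A fit with the replicate number as a block called 0 members in the interaction and changed no other count. Same-numbered libraries of different groups had a median r of -0.04 over 70 pairs (-0.62 to 0.63). The 304 other pairs had a median of 0.00 (-0.67 to 0.72). With such a spread and pool membership not given, these values cannot decide whether the numbers carry any pairing. The correlation with smooth muscle was 0.501 for the sum of all miR-1 forms. Of 2457 alternative log2 fold changes of members, 2406 kept their direction, and of the 51 others 2 had a value over 1 before, miR-1 DEL A (-0.03) and miR-1 ADD TC (-0.12) in PD20 against PD12 without PD20 replicate 1. Library sizes from all deposited reads moved the median of all sequences by up to -0.52 (in the interaction of D20 against D12). For each alternative the cause was not tested. The members with the fewest reads were miR-206 and miR-1 ADD TC, with medians of 8.5 and 10 per library, and how depth limits them was not tested. The counts of smooth muscle sequences without single libraries and the split into miR-143 and miR-145 were added after seeing the data.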
